A study of Mus musculus with 2 samples.

Results

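The Notch genes described here were 10 of the 32285 genes in both count matrices, chosen by symbol: the receptors Notch1, Notch2, Notch3 and Notch4, the ligands Dll1, Dll4, Jag1 and Jag2, and the target genes Hes1 and Hes5. Each symbol matched 1 row of both matrices. The series held 1 control and 1 Plexin-B2 conditional knockout (cKO) library of single brain cells, and its title asks about a role of Plexin-B2 in myeloid cells around glioblastoma. The control host was Cx3cr1 CreER/+ Plxnb2 fl/+, so it carried a floxed allele and the Cre although its title calls it wild type, and the cKO host was Cx3cr1 CreER/+ Plxnb2fl/fl. Both hosts received tamoxifen at 100 mg/kg, beginning 3 days ahead of an intracranial graft of KR158, a mouse glioblastoma line, and repeated every other day up to 8 weeks. Tissue within about 1 mm on either side of the graft site was taken. CreER sits at the Cx3cr1 locus, a gene of microglia and other myeloid cells. The vascular, glial and neural classes below, apart from microglia, are therefore not those the Cre is aimed at. The labels used here give no age for the animals.

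Notch is a receptor that is cut after a ligand on a neighbouring cell binds it. The released intracellular part joins the DNA-binding protein RBPJ and switches on target genes, among them the Hes and Hey repressors. In brain vessels the pathway is known for arterial identity and for keeping mural cells, the pericytes and smooth muscle cells that wrap vessels, while in the neural lineage Hes1 and Hes5 hold stem cells and astroglia back from neuronal differentiation.

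Filtering kept 7648 control and 5210 cKO cells with median depths of 4626 and 5919 UMIs, where a UMI count is a count of tagged RNA molecules. Cells were grouped by marker genes, with the 10 Notch genes and the pathway lists left out of the clustering. Classes with at least 100 cells in both libraries were endothelial (693 control, 885 cKO), mural (164, 172), astrocyte (2643, 1529), neuroblast (140, 244), oligodendrocyte (937, 561), microglia (1277, 566) and ependymal cells (242, 112). Each class showed at least 8 of its own markers. No cluster met the marker rule for tumour cells, and 1812 cells (14.1%) in 9 clusters stayed unnamed. Kept cells of the libraries shared 8 barcodes. Plxnb2, the gene targeted in the cKO, stood at 202 CPM in control microglia from 1122 UMIs and at 38.6 CPM in cKO microglia from 155 UMIs, where CPM gives a gene's UMIs relative to all UMIs of the same cells. Interferon response genes were higher over all kept cells of the cKO library, with a summed level of 776 and 2421 CPM, control first. The sum was 2484 and 4706 CPM in endothelial cells and 121 and 542 CPM in astrocytes. In cycling neural progenitors, a smaller class, it was lower in the cKO library, at 170 and 129 CPM. The part of interferon response genes in the results below was not tested. With 1 library per genotype there is no replicate, so the genotype cannot be told apart from the animal or the preparation of its library. All intervals below are 95% intervals for counting error only.

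All 10 members are protein-coding genes, read here by 3′ tags. On mm10 Notch1 spans 26457903 to 26516663 of chromosome 2 (minus strand), Notch2 98013527 to 98150361 of chromosome 3 (plus), Notch3 32120820 to 32166852 of chromosome 17 (minus) and Notch4 34564268 to 34588503 of chromosome 17 (plus). Dll1 spans 15367354 to 15376872 of chromosome 17 (minus), Jag1 137081456 to 137116644 of chromosome 2 (minus), Jag2 112907819 to 112929776 of chromosome 12 (minus) and Hes1 30064384 to 30067796 of chromosome 16 (plus). An annotated gene on the other strand overlaps Notch1, Notch3, Notch4, Dll1, Dll4 and Hes5. The counting's use of strand is not stated, so reads of those pairs may not have been told apart.

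The plot of levels by class gives each gene's CPM in 11 marker-defined classes of both libraries. Of the 9 members that reached 10 CPM in a class of at least 100 cells, 9 had the same leading class among those 7 in both libraries. Among all genes the share was 83.4%, so this agreement was near the background. In 6 of the 9 (Notch3, Notch4, Dll4, Jag1, Jag2 and Hes5) the leading class stood at least 2-fold above the next in both libraries, against 33.9% of all genes. Oligodendrocytes gave a low reference for free RNA: Notch3 stood there at 0.764 and 1.07 CPM, Dll4 at 0.153 and 0.213 CPM, Hes1 at 4.28 and 1.07 CPM and Hes5 at 5.81 and 3.63 CPM, control first.

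**Figure D1:**
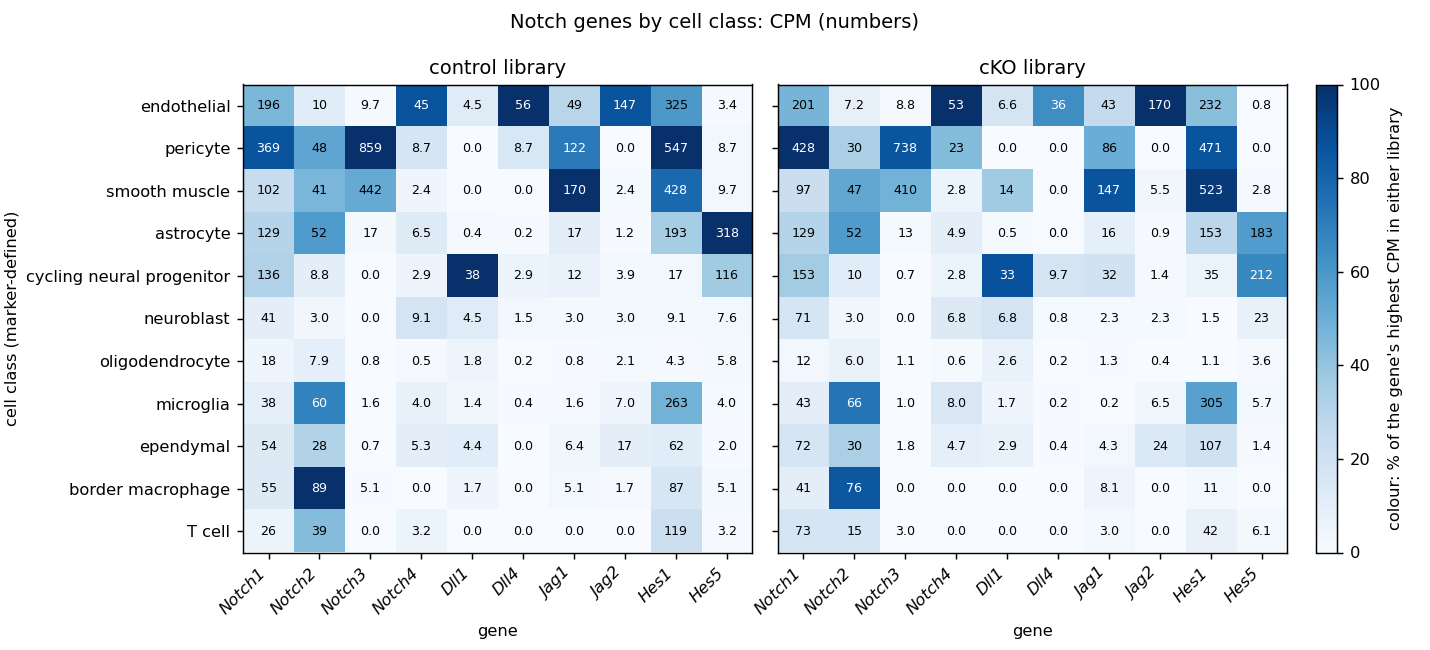
Level of the 10 Notch genes in 11 cell classes of the control and the cKO library. Numbers are CPM, rows are classes, columns are genes, and colour gives each value as a percentage of that gene's highest CPM in either library, so colours are not compared between genes. Notch3 and Jag1 are darkest in pericytes and smooth muscle cells, Notch4, Dll4 and Jag2 in endothelial cells, and Hes5 in astrocytes and cycling neural progenitors.

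Notch3, the receptor that mural cells use, was led by pericytes in both libraries. Its level was 859 CPM (198 UMIs, 744 to 988) in control pericytes and 738 CPM (224 UMIs, 645 to 841) in cKO pericytes. Smooth muscle cells had 442 CPM (182 UMIs, 380 to 511) and 410 CPM (148 UMIs, 346 to 481). Smooth muscle thus stood at 0.515-fold (0.419 to 0.633) of the pericyte level in control cells and at 0.555-fold (0.448 to 0.686) in cKO cells. The next class, astrocytes, was at 16.5 and 12.7 CPM, so that mural cells as a whole were 35.8-fold and 44.1-fold above it. A Notch3 UMI was found in 82.8% of 93 control and 84.2% of 101 cKO pericytes.

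Notch1, the receptor best known from arteries and neural stem cells, showed a steeper step inside the mural class. Pericytes held 369 CPM (295 to 456) in control and 428 CPM (358 to 509) in cKO cells, whereas smooth muscle cells held 102 CPM (73.6 to 138) and 96.9 CPM (67.5 to 135). The smooth muscle to pericyte ratio of Notch1 was 0.277 (0.186 to 0.405) and 0.226 (0.151 to 0.331). Endothelial cells came next after pericytes at 196 and 201 CPM, followed by cycling neural progenitors at 136 and 153 CPM and astrocytes at 129 CPM in both libraries. In the control library progenitors and astrocytes were not separated beyond counting error, with a ratio of 1.06 (0.885 to 1.26). Microglia had 37.7 and 42.9 CPM of Notch1, and oligodendrocytes had 17.7 and 11.9 CPM.

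Notch2, another receptor of the family, was led by border macrophages, which line the brain's surfaces and vessels, at 88.9 CPM in 126 control cells and 75.7 CPM in 68 cKO cells. Microglia followed at 60.2 and 65.6 CPM, and the lead of border macrophages over them was 1.48-fold (1.08 to 1.98) in the control but within counting error in the cKO library at 1.15-fold (0.752 to 1.71). Next were astrocytes at 52.0 CPM in both libraries. Microglia stood 1.16-fold (1.01 to 1.32) and 1.26-fold (1.08 to 1.47) above astrocytes. The mural types followed: pericytes had 47.7 and 29.7 CPM and smooth muscle cells 41.3 and 47.1 CPM, and the mural type next below astrocytes was not separated from them in either library. Endothelial cells had 10.3 and 7.16 CPM of Notch2. In the choroid plexus cells, of which the control library held 353 and the cKO library 4, the control level of Notch2 was 54.9 CPM.

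Notch4, a receptor known from endothelium, was led by endothelial cells at 45.5 CPM (244 UMIs, 39.9 to 51.6) and 52.5 CPM (447 UMIs, 47.8 to 57.6). In the control library the next class, neuroblasts, was at 9.07 CPM from 6 UMIs. In the cKO library pericytes were next at 23.1 CPM from 7 UMIs. The leading classes of the receptors thus differed, with Notch3 and Notch1 highest in pericytes, Notch4 in endothelial cells and Notch2 in border macrophages.

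Among the ligands, Jag1, which endothelial and mural cells present to each other, was led by smooth muscle cells at 170 CPM (133 to 215) and 147 CPM (110 to 192). Pericytes had 122 CPM (80.7 to 176) and 85.7 CPM (56.0 to 126), and the 2 mural cell types were separated beyond counting error only in the cKO library, where the ratio was 1.71 (1.05 to 2.85). Endothelial Jag1 was 49.4 and 43.3 CPM. Jag2, the other Jagged ligand, was led by endothelial cells at 147 CPM (789 UMIs) and 170 CPM (1451 UMIs), 8.52-fold (6.88 to 10.7) and 7.13-fold (5.57 to 9.27) above ependymal cells. Mural cells held 1 and 2 UMIs of Jag2.

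Dll4, the ligand that limits vessel sprouting, was led by endothelial cells at 55.7 CPM (299 UMIs, 49.6 to 62.4) in control and 35.6 CPM (303 UMIs, 31.7 to 39.8) in cKO cells. A Dll4 UMI was found in 28.9% of control and 23.8% of cKO endothelial cells, against 0.107% and 0.178% of oligodendrocytes. After thinning each cell to 1000 UMIs the endothelial shares were 5.48% and 3.16%. Dll1, the ligand of dividing neural progenitors, did not reach 10 CPM in any class of at least 100 cells. It was led by cycling neural progenitors (82 control and 97 cKO cells) at 38.0 CPM (39 UMIs, 27.0 to 52.0) and 33.2 CPM (48 UMIs, 24.4 to 44.0), and these levels differed by less than counting error. The lead over the next class was 8.38-fold in the control library, but in the cKO library the lead over smooth muscle cells (5 UMIs) was within counting error at 2.40-fold (0.958 to 7.71).

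Among the targets, Hes1, a repressor that Notch and other pathways switch on, was led by pericytes in the control library at 547 CPM (456 to 651), followed by smooth muscle cells at 428 CPM, endothelial cells at 325 CPM and microglia at 263 CPM. In the cKO library smooth muscle cells at 523 CPM and pericytes at 471 CPM were not separated beyond counting error, with a ratio of 1.11 (0.889 to 1.39), and microglia at 305 CPM stood above endothelial cells at 232 CPM. Hes5 was high in fewer classes. Control astrocytes at 318 CPM led cycling neural progenitors at 116 CPM by 2.74-fold (2.29 to 3.32), whereas cKO progenitors at 212 CPM led astrocytes at 183 CPM by 1.16-fold (1.02 to 1.31). Every other named class in the plot was at 23.3 CPM of Hes5 or below in both libraries. Unnamed cluster 23, given under other observations, stood above astrocytes and progenitors in both libraries.

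Endothelial cells were divided further by artery and vein markers into 73 and 96 arterial, 20 and 63 venous, and 600 and 726 other cells, control first. The last group met neither rule and holds all other endothelial subclusters, among them small ones led by pericyte, astrocyte or immune genes and 1, subcluster 3, with 2 arterial markers. Notch1, Notch4, Jag1 and Jag2 were highest in the arterial group of both libraries. Arterial Jag2 was 272 CPM (237 to 311) in control and 318 CPM (288 to 350) in cKO cells, 2.11-fold (1.79 to 2.48) and 2.06-fold (1.83 to 2.31) the level of the other group. Arterial Notch4 was 66.7 and 90.8 CPM, 1.57-fold (1.13 to 2.15) and 1.96-fold (1.56 to 2.44) the other group, and arterial Notch1 was 258 and 291 CPM, 1.37-fold (1.16 to 1.60) and 1.47-fold (1.31 to 1.66). Arterial Jag1 was 91.1 and 62.6 CPM, 2.33-fold and 1.47-fold the other group, with lower bounds of 1.73 and 1.13.

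Dll4 followed another order. Its arterial level of 64.1 and 46.6 CPM lay within counting error of the other group at 58.7 and 39.5 CPM, with ratios of 1.09 (0.789 to 1.49) and 1.18 (0.874 to 1.57). Venous Dll4 was 18.2 CPM from 9 UMIs in the control and 10.8 CPM from 16 UMIs in the cKO library, 0.309-fold (0.140 to 0.597) and 0.275-fold (0.154 to 0.456) of the other group. Hes1 differed in order between the libraries. Control arterial Hes1 was 310 CPM (272 to 352), 0.903-fold (0.784 to 1.04) of the other group, and cKO arterial Hes1 was 151 CPM (131 to 174), 0.555-fold (0.476 to 0.644). Hey1, the target most tied to arterial cells, was 160 and 148 CPM in the arterial group.

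**Figure D2:**
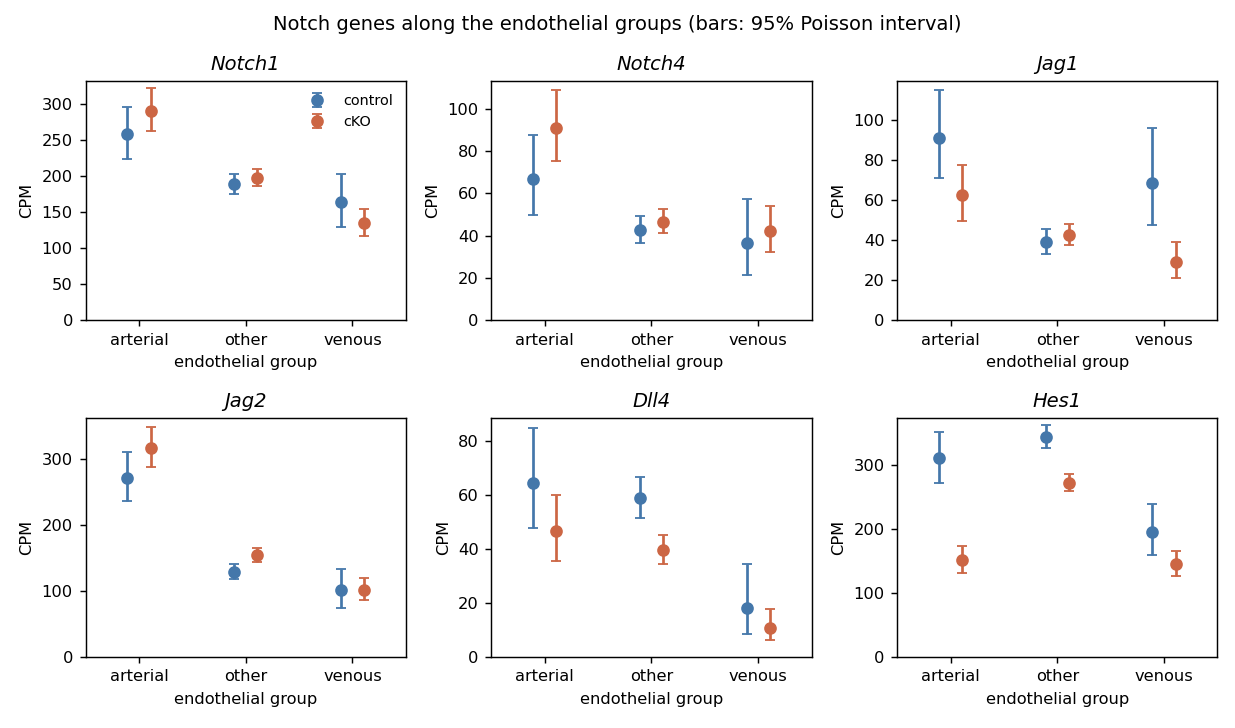
Levels of 6 Notch genes in arterial, other and venous endothelial cells of the control (blue) and cKO (orange) library, in CPM on linear axes from 0; points are summed UMIs over total UMIs and bars are 95% Poisson intervals for counting error. Jag2, Notch4 and Notch1 are highest in arterial cells of both libraries, Dll4 is low in venous cells, and Hes1 of arterial cells is 310 CPM (control) and 151 CPM (cKO).

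Comparing the libraries class by class, 27 of the 70 pairs of a member and a main class had enough UMIs to measure a ratio (at least 20 UMIs over both libraries and a mean of at least 10 CPM). A pair was called at 1.5-fold or more with a counting interval that excludes equality. By that rule 3 pairs were higher in the cKO library (11.1%), against 2.51% of all gene and class pairs, and 2 were lower (7.41%), against 2.44%. The other 22 measured pairs were called in neither direction. The lower pairs were Dll4 in endothelial cells and Hes5 in astrocytes, and the higher pairs were Notch1 and Hes5 in neuroblasts and Hes1 in ependymal cells.

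**Figure D3:**
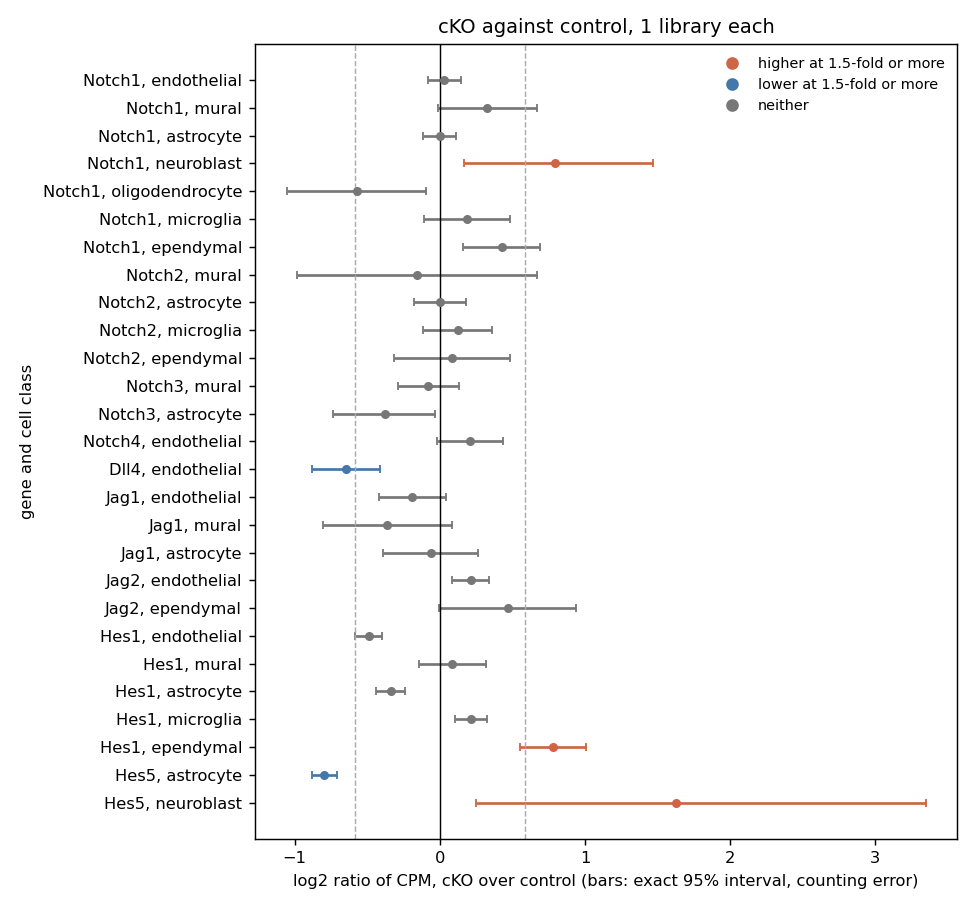
Log2 ratio of CPM, cKO over control, for the 27 measured pairs of a Notch gene and a cell class; points are ratios of summed UMIs, bars exact 95% intervals for counting error, and dashed lines mark 1.5-fold. The 2 pairs called lower are Dll4 in endothelial cells and Hes5 in astrocytes, and the 3 pairs called higher are Notch1 and Hes5 in neuroblasts and Hes1 in ependymal cells, of which Hes5 in neuroblasts has the widest bar.

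Hes5 (mm10 chromosome 4, 154960923 to 154962371, plus strand, protein-coding), a repressor that marks active Notch signalling in neural stem cells and astroglia, gave the lowest ratio in astrocytes. Its level was 318 CPM (3926 UMIs, 308 to 328) in control and 183 CPM (1487 UMIs, 174 to 193) in cKO cells. The log2 ratio was -0.80 (-0.88 to -0.71), and 1.32% of the genes measured in astrocytes were called higher and 1.53% lower. A Hes5 UMI was found in 49.0% of control and 37.7% of cKO astrocytes, and in 22.3% and 14.0% after thinning, while thinned oligodendrocytes gave 0.534% and 0.535%. The astrocyte markers used for naming summed to 19486 CPM in control and 22068 CPM in cKO astrocytes. The same markers named these cells, so the sum cannot show whether astrocyte content differed.

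Hes5 had a lower value in the cKO library in each of the 6 astrocyte clusters. Cluster 1, the largest and led by Crym and Hapln1, had 408 CPM (391 to 425) and 237 CPM (222 to 253) of Hes5, a log2 ratio of -0.78 (-0.90 to -0.67), where 2.46% of genes were called lower. Cluster 4, led by Rpe65, had 236 and 139 CPM (-0.77, with 3.6% of genes called lower), and cluster 5, led by Agt, had 247 and 112 CPM (-1.14, with 2.56%). Cluster 8, led by Grin2c, had 335 and 124 CPM (-1.43, with 6.62%), and cluster 13, led by Baalc, had 265 and 134 CPM (-0.99, with 3.98%). Cluster 15, led by Thbs4 and Gfap, had 259 and 173 CPM and was not called (-0.58, -0.92 to -0.25, with 5.36%). Hes5 was thus called lower in 5 of the 6. Hes1 was called lower in clusters 8 (187 and 84.5 CPM) and 13 (96.2 and 42.0 CPM) only, and in cluster 5 it was 149 and 154 CPM.

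No other member was called in astrocytes, and whether their ratios differ from that of Hes5 was not tested. Hes1, the companion repressor, was 193 CPM (2383 UMIs) and 153 CPM (1241 UMIs) in astrocytes, with a log2 ratio of -0.34 (-0.44 to -0.24) that was under the fold required. Notch3 was 16.5 and 12.7 CPM, a ratio of -0.38 (-0.74 to -0.03), and the intervals of both Hes1 and Notch3 leave out equality. Jag1 had a ratio of -0.06 (-0.39 to 0.26). Notch1 at 129 CPM and Notch2 at 52.0 CPM in both libraries had intervals of -0.12 to 0.11 and -0.18 to 0.18 on the log2 scale. Nrarp, a feedback target of the pathway, was 103 and 101 CPM (-0.02, -0.15 to 0.11), Hey1 was 34.2 and 36.4 CPM, and Hey2 was 16.9 and 22.3 CPM. Lfng, which adds sugar to the receptor, was 152 and 157 CPM. In 2643 control astrocytes, 659 held UMIs of both Hes1 and Hes5, 637 of Hes5 alone and 518 of Hes1 alone, and in 1529 cKO astrocytes these counts were 259, 318 and 340.

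**Figure D4:**
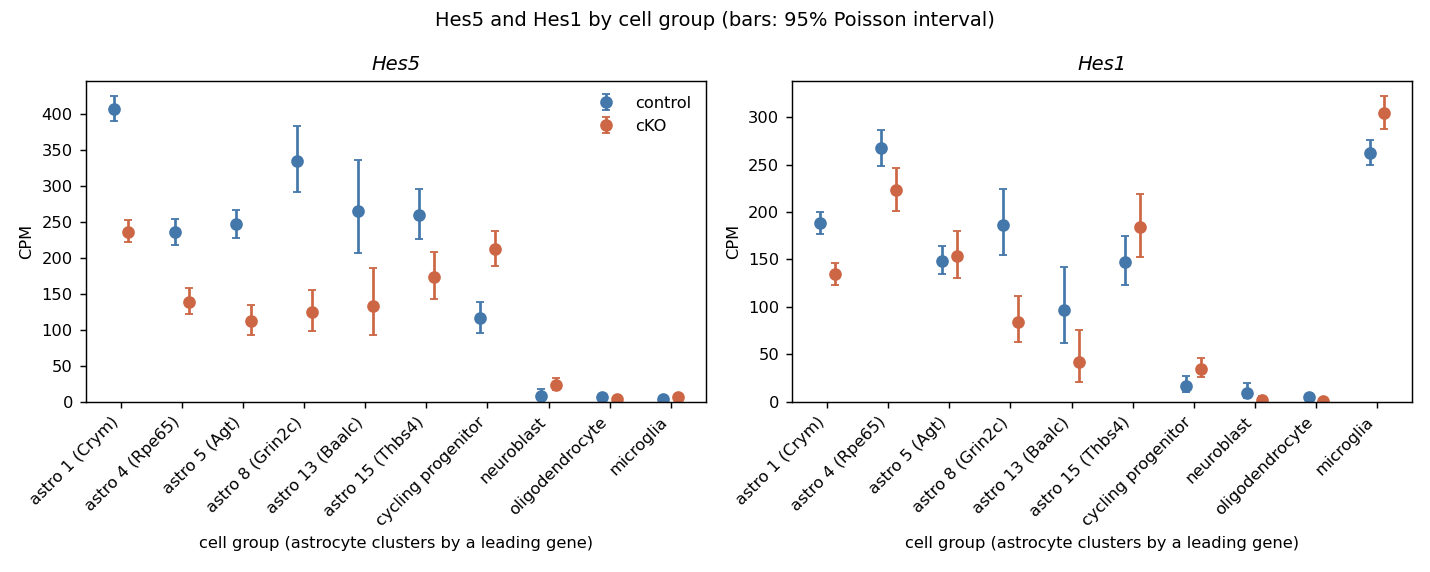
Levels of Hes5 (left) and Hes1 (right) in the 6 astrocyte clusters, named by a leading gene, and in 4 other classes of the control (blue) and cKO (orange) library, in CPM on linear axes from 0; bars are 95% Poisson intervals for counting error. Hes5 is lower in the cKO library in each astrocyte cluster and higher in cycling progenitors, while Hes1 has no single direction over the astrocyte clusters.

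The sequence just before the start of the 2 genes called lower is shown because Hes5 is a textbook target of RBPJ. Capitals mark the RBPJ core motif GTGGGAA or its reverse complement TTCCCAC, searched on both strands. The windows hold the 250 bases before the start, from RefSeq on GRCm38.p6, the assembly also called mm10, on the plus strand, at chr4:154960673-154960922 for Hes5 and chr2:119325534-119325783 for Dll4.
Hes5: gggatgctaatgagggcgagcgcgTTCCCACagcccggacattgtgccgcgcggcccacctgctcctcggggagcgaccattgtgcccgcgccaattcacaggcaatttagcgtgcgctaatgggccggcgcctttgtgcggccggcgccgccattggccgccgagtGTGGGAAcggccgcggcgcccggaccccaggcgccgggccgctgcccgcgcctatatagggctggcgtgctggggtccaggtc
Dll4: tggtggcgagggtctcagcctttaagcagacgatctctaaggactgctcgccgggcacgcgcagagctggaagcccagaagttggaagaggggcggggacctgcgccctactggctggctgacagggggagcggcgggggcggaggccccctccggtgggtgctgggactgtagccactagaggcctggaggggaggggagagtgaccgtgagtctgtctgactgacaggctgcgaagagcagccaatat
The Hes5 window held the motif 2 times, from positions 25 and 168, in opposite orientations, and the Dll4 window held none. Of 32851 RefSeq windows of 300 bases, which run 50 bases past the start, 6.38% held the motif and 0.256% held it at least 2 times. Hey2, which also held 2 matches, was not lower in cKO astrocytes by the rule above. For Hes1, Hey1 and Heyl no sequence was available to search. The windows of Notch1, Notch2, Notch3, Notch4, Dll1, Jag1 and Jag2 held none. A match describes letters in these windows and is no evidence of binding.

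In cycling neural progenitors Hes5 had the other sign. Its level was 116 CPM (119 UMIs, 96.1 to 139) in control and 212 CPM (307 UMIs, 189 to 237) in cKO cells, a log2 ratio of 0.87 (0.56 to 1.19), where 3.31% of genes were called higher. Few cells carried it: 19 of 82 control and 25 of 97 cKO progenitors had a Hes5 UMI, and the 5 cells with most UMIs held 73.9% and 56.0% of them. Without those 5 cells per library the ratio was 1.60 (1.02 to 2.21), but that step took a larger share of the UMIs from the control library. After thinning to 1000 UMIs the Hes5 ratio was 0.88 (-0.20 to 2.06) and was not called. Jag1 was 11.7 CPM (12 UMIs) and 32.5 CPM (47 UMIs) in cycling progenitors, a ratio of 1.47 (0.54 to 2.52), and was not measured after thinning. Hes1 was 16.6 CPM (17 UMIs) and 34.5 CPM (50 UMIs), a ratio of 1.06 (0.24 to 1.95), but 1 cKO cell held 23 of those UMIs, and without the 5 cells with most UMIs it was 0.66 (-1.18 to 2.81). With a floor of 2000 UMIs per cell the Hes1 ratio was -0.27.

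Neuroblasts, the migrating neuronal progeny of such progenitors, held less of Hes5, Dll1 and Notch1 in both libraries. Hes5 was 15.4-fold (6.40 to 48.1) and 9.09-fold (6.27 to 13.6) higher in progenitors than in neuroblasts, Dll1 8.38-fold (2.67 to 42.4) and 4.90-fold (2.38 to 11.3), and Notch1 3.34-fold (2.20 to 5.25) and 2.16-fold (1.69 to 2.78). Of the control progenitors 10 held UMIs of both Dll1 and Hes5, 10 of Dll1 alone, 9 of Hes5 alone and 53 of neither, and of the cKO progenitors 11, 21, 14 and 51. Progenitors with a Dll1 UMI had less Dcx, a neuroblast gene, at 55.5 CPM (control) and 96.9 CPM (cKO) against 206 and 270 CPM in those without. Progenitors with a Hes5 UMI had 29.4 CPM of Dcx against 208 CPM in the control library, while in the cKO library the values were 178 and 216 CPM. The cells with a UMI of either gene were also deeper, with median depths for Dll1 of 14629 and 16183 UMIs against 11251 and 13099.

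In neuroblasts Notch1 was 40.8 CPM (27 UMIs, 26.9 to 59.4) in control and 70.7 CPM (94 UMIs, 57.2 to 86.6) in cKO cells. Its log2 ratio was 0.79 (0.16 to 1.47), where 2.13% of genes were called higher and 2.86% lower. Hes5 in neuroblasts was 7.56 CPM from 5 UMIs and 23.3 CPM from 31 UMIs, a ratio of 1.63 (0.25 to 3.35). Its cKO UMIs came from 7 of 244 cells, 19 of them from 1 cell, and no call was made without the 5 cells with most UMIs. With cells weighted equally the Hes5 ratio was 0.92 and that of Notch1 0.61, and neither was then called.

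Dll4 (mm10 chromosome 2, 119325784 to 119335962, plus strand, protein-coding) was lower in cKO endothelial cells at the levels given above, with a log2 ratio of -0.65 (-0.88 to -0.41), where 1.02% of genes were called higher and 2.36% lower. Its ratio was -0.46 (-1.03 to 0.11) in arterial and -0.57 (-0.84 to -0.30) in other endothelial cells (2.49% of genes called lower), neither past the fold required. Venous cells, which were low in Dll4, held 495703 of the 5365034 control and 1476704 of the 8513762 cKO endothelial UMIs. The part of this venous share in the pooled Dll4 ratio was not tested. Unnamed cluster 7 (153 and 328 cells), which carried endothelial, pericyte and erythroid markers, had 57.8 and 30.6 CPM of Dll4. Its ratio was -0.92 (-1.23 to -0.61), where 2.01% of genes were called lower. Unnamed cluster 18 (88 and 96 cells), with endothelial and erythroid markers, had 61.3 and 33.0 CPM. The ratio there was -0.89 (-1.42 to -0.37), where 3.25% were called lower. Median depths were 15402 and 17517 UMIs in cluster 7, 12752 and 13441 in cluster 18, and 5973 and 7167 in endothelial cells. Apart from the doublet calls, whether barcodes of these clusters held several cells was not tested. Clustering the endothelial cells alone split the libraries unevenly: subcluster 1, led by Tgtp1 and Ifit3b, held 42 control and 260 cKO cells, and subcluster 2, led by Fhl3 and with Angpt2 among its leading genes, held 195 and 40. Within the 4 largest subclusters, none of which met the arterial or venous rule, Dll4 was called lower in subcluster 0 (61.3 and 36.5 CPM, -0.75, with 3.15% of genes called lower), subcluster 1 (79.0 and 43.2 CPM, -0.87, with 3.27%) and subcluster 3, which carried 2 arterial markers (50.1 and 15.6 CPM from 23 and 10 UMIs, -1.69, with 3.15%). In subcluster 2 it was 55.9 and 44.1 CPM from 96 and 13 UMIs and was not called (-0.34, -1.30 to 0.50, with 2.44%). Jag2 was called higher in subcluster 1, at 95.6 and 160 CPM (0.75, with 2.15% of genes called higher). The endothelial call of Dll4 ended with doublet calls kept (-0.56) and with cells weighted equally (-0.55).

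The other endothelial members were called in neither direction. Notch1 had a log2 ratio of 0.03 (-0.08 to 0.14), Notch4 of 0.21 (-0.02 to 0.44), Jag1 of -0.19 (-0.42 to 0.04) and Jag2 of 0.21 (0.09 to 0.34). After thinning to 1000 UMIs Notch4 was called higher at 0.77 (0.02 to 1.57). Hes1 was 325 CPM (1745 UMIs, 310 to 341) and 232 CPM (1971 UMIs, 221 to 242), a ratio of -0.49 (-0.58 to -0.40) that was under the fold required. With a mitochondrial limit of 5% it was -0.77 and was called. Its sign differed between the 4 subclusters, where no Hes1 ratio was called: -0.47 in subcluster 0, 0.15 in subcluster 1, 0.33 in subcluster 2 and -0.37 in subcluster 3. In the arterial group Hes1 was called lower at -1.04 (-1.32 to -0.76), where 3.93% of genes were called lower. Dissociation and immediate early genes moved alongside Hes1: their sum was 8740 and 7343 CPM in endothelial cells, where 5 of 21 measured were lower and 1 higher, and 9529 and 7276 CPM in arterial cells, where 8 of 21 were lower and 0 higher. Their part in the Hes1 difference was not tested. Hey1 was 66.2 and 59.9 CPM in endothelial cells, a ratio of -0.14 (-0.34 to 0.06).

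Pooling all kept cells gave other values than the classes did. Jag2 was 30.5 CPM in all control and 66.1 CPM in all cKO cells, a log2 ratio of 1.12 (1.02 to 1.21), and Notch4 was 11.5 and 23.4 CPM, a ratio of 1.03 (0.88 to 1.18). Jag1 (0.73) and Notch3 (0.70) were also called higher and Hes5 (-0.96) lower. Over all kept cells 7.72% of genes were called higher and 5.61% lower. Within endothelial cells the ratio was 0.21 for both Jag2 and Notch4, and endothelial cells were 9.06% of control and 17.0% of cKO cells. Dll4 had a ratio of 0.28 (0.11 to 0.45) over all cells and of -0.65 within endothelial cells. Only the control matrix had been filtered for cells, and the part of that step in these shares was not tested.

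In mural cells no member was called, where 5.53% of genes were called higher and 2.89% lower. Notch3 was 592 CPM (380 UMIs) and 560 CPM (372 UMIs), a log2 ratio of -0.08 (-0.29 to 0.13), Hes1 was 470 and 499.5 CPM (0.09, -0.14 to 0.32), Jag1 153 and 119 CPM (-0.36, -0.81 to 0.08) and Notch1 198 and 248 CPM (0.33, -0.02 to 0.67). In smooth muscle cells Hes1 was 428 and 523 CPM, and the 5 cells with most UMIs held 60.8% of the cKO UMIs. The mural targets Heyl and Hey2, repressors of the Hey family, were 181 and 182 CPM and 132 and 119 CPM. Markers of endothelial cells summed to 206 CPM in control and 796 CPM in cKO mural cells. Control first, that sum was 473 and 491 CPM in pericytes and 55.9 and 1052 CPM in smooth muscle cells. Astrocyte markers summed to 937 and 801 CPM in pericytes and to 471 and 1210 CPM in smooth muscle cells. The part of these markers in the mural values was not tested.

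In microglia, a class the Cre is aimed at, no member was called, where 3.64% of genes were called higher and 3.48% lower. Hes1 was 263 CPM (1457 UMIs, 249 to 276) and 305 CPM (1222 UMIs, 288 to 322), a log2 ratio of 0.21 (0.10 to 0.33). Notch2 had a ratio of 0.12 (-0.12 to 0.36) and Notch1 of 0.19 (-0.11 to 0.49). Hes1 UMIs were found in 30.1% of control and 44.0% of cKO microglia, and in 13.5% and 18.6% after thinning, at median depths of 3963 and 6099 UMIs. Unnamed clusters 6 and 12, of low depth and with microglial markers, are not part of this class. Their Hes1 was higher in the cKO library, with values given under the results flagged below. In border macrophages Hes1 was 87.2 CPM from 51 UMIs and 10.8 CPM from 4 UMIs, a ratio of -3.01 (-4.94 to -1.57), where 3.63% of genes were called lower. Those UMIs came from 13 of 126 control and 3 of 68 cKO cells. Dissociation and immediate early genes went the other way there, with sums of 8892 and 14353 CPM, and 14 of 22 were called higher. In T cells Hes1 was 119.5 CPM (37 UMIs) and 42.4 CPM (14 UMIs) in 74 and 77 cells, a ratio of -1.50 (-2.50 to -0.57), where 3.56% of genes were called lower. Only 4 control and 3 cKO T cells had a Hes1 UMI, and 1 control cell held 25 of them. Without the 5 cells with most UMIs no Hes1 UMI was left to compare. Notch1 in T cells was 25.8 CPM (8 UMIs) and 72.7 CPM (24 UMIs), a ratio of 1.49 (0.29 to 2.86), where 3.71% of genes were called higher. With cells weighted equally that ratio was 1.10 (-0.11 to 2.46) and was not called.

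In ependymal cells, which line the ventricles, Hes1 was 62.5 CPM (344 UMIs, 56.0 to 69.4) and 107 CPM (296 UMIs, 95.3 to 120.1), a log2 ratio of 0.78 (0.55 to 1.01), where 3.21% of genes were called higher and 1.5% lower. Without the 5 cells with most UMIs the ratio was 0.63. Of 21 dissociation and immediate early genes measured in ependymal cells 14 were higher and 0 lower, with a median ratio of 0.97. The summed level of these genes was nevertheless 8714 CPM in control and 8503 CPM in cKO ependymal cells. Their part in the Hes1 difference was not tested. After thinning, the share of ependymal cells with a Hes1 UMI was 7.02% for control and 6.25% for cKO cells. Ependymal Notch1 was 53.6 and 72.1 CPM (0.43, 0.16 to 0.69) and Jag2 17.3 and 23.9 CPM (0.47, -0.01 to 0.94), and neither was called. With cells weighted equally ependymal Jag2 was called higher at 1.26. In oligodendrocytes Notch1 was 17.7 and 11.9 CPM, a ratio of -0.57 (-1.06 to -0.10), also not called, where 0.818% of genes were called higher and 2.68% lower. Oligodendrocyte Notch1 was called lower with a floor of 2000 UMIs (-0.71) and with doublet calls kept (-0.82). It was also called lower with cells weighted equally (-0.65) and without the 5 cells with most UMIs (-0.77).

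The rest of the pathway was taken as 48 further genes in 6 roles. Over the 7 main classes 205 pairs of a gene and a class were measured, of which 6 were higher (2.93%) and 5 lower (2.44%) in the cKO library, close to the 2.51% and 2.44% of all pairs. In endothelial cells 31 were measured, 0 were higher and 1 lower, which was the coactivator Maml3 at 14.2 and 9.40 CPM. In astrocytes 35 were measured and 2 were higher, the ligand-like gene Dlk1 at 6.65 and 14.2 CPM and the protease Furin, which cuts the receptor on its way to the surface, at 13.9 and 21.0 CPM. Mural cells had 3 higher, Egfl7 at 4.67 and 45.1 CPM, Dtx4 at 23.4 and 57.2 CPM and Itch at 60.8 and 96.3 CPM, and 1 lower, Maml1 at 28.0 and 10.5 CPM. Egfl7 is among the endothelial markers added up in the sum given for mural cells, so its level and that sum are not independent. In neuroblasts 1 of 30 was lower, the ligand-like gene Dner at 28.7 and 13.5 CPM. In microglia 1 of 28 was lower, Hes6, a Hes relative that opposes Hes1, at 28.3 and 18.7 CPM. Oligodendrocytes had Dner higher and Maml1 lower among 21, and none of 29 was called in ependymal cells.

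The genes closest to each member were found from the correlation of log2(CPM + 10) over 22 points, 11 classes in each of 2 libraries, which share depth and free RNA within a library. Notch3 was closest to Heyl (r = 0.99) and Cspg4 (0.99), a pericyte marker. Dll4 was closest to Cyp2e1 (0.95) and Depp1 (0.94), Jag2 to Hmcn1 (0.97) and Nos3 (0.97), and Notch4 to Arhgef15 (0.92) and Palmd (0.92). Jag1 was closest to Phldb2 (0.95) and Prss23 (0.94), and Hes5 to Gm10561 (0.93) and Rgs20 (0.92). Dll1 was closest to Cenpp (0.91) and Anp32e (0.90). Lower values were found for Notch1, with Mrpl4 at 0.89, for Notch2, with Prdx5 at 0.88, and for Hes1, with Lpp at 0.85. Among the members themselves Jag1 and Notch3 had r = 0.87, Dll4 and Jag2 0.82, and Dll4 and Notch4 0.79.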

How the data were processed

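Single-cell RNA was measured in 1 control and 1 cKO library with the 10x Genomics 3′ v3.1 kit after papain digestion, Percoll debris removal and red cell lysis, per the labels' protocols. The deposited values are raw UMI counts, made by the authors with Cell Ranger 7.1.0 on mm10, per the submitters' processing notes. No annotation release, intron setting or strand setting is stated in the labels or notes used here, and 6 of the 10 members overlap an annotated gene on the other strand. The deposited control matrix held 10942 barcodes, each with at least 500 UMIs (64756949 in all), and the cKO matrix 2377349 barcodes (63785513 UMIs), so it was not filtered.

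Kept cells had a minimum of 1000 UMIs and 500 genes, a mitochondrial share up to 10% and no Scrublet call (5.21% of control and 3.48% of cKO cells were called). They were clustered with scanpy 1.11.5 and leidenalg 0.10.2 (2000 variable genes without the Notch lists, 30 components, 15 neighbours, resolution 1), with no integration, into 28 clusters. A cluster was named from at least 3 markers found in 10% of its cells and 2-fold over the other clusters. It stayed unnamed with under 3 markers or with 75% of the markers of another class. Low depth with no own marker among the top 10 genes, or more markers of another class there, also left it unnamed. The rule that parts neuroblasts from cycling progenitors, the 1.5-fold limit for artery and vein markers and a neutrophil-led cluster left unnamed were set after clusters were seen. UMIs were summed per class and scaled to CPM, with exact Poisson intervals. Ratios are cKO over control with exact conditional Clopper-Pearson intervals at 95%. UMIs of 1 cell are not independent, so intervals are too narrow where few cells hold most of them. No p-value is given, since each group has 1 library. The ratio step was run on simulated Poisson sums, the model its intervals assume. UMIs held by few cells were not simulated, so that run cannot show how the intervals hold for such data. Smaller classes needed at least 50 cells in both libraries.

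All 10 members were named in every class, with up to 4 pathway genes per main class by the highest absolute ratio among those measured, of which the text gives those called. Itch, Hey1, Hey2, Heyl, Nrarp, Lfng and Dcx and the endothelial subclusters were chosen after their values were seen. Members and lists were chosen with earlier results of these data known. Coordinates are from GENCODE vM21 on mm10, promoter windows from RefSeq on GRCm38.p6. Sums and intervals were computed with pandas 2.3.3 and scipy 1.17.1 under Python 3.11.15.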

Additional observations from a re-analysis of the deposited data

Results flagged for a closer look

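Hes1 was called in opposite directions in different classes. Its log2 ratio of cKO over control was 0.78 in ependymal cells and 1.06 in cycling neural progenitors, and -1.04 in arterial endothelial cells, -3.01 in border macrophages and -1.50 in T cells. The progenitor call ended under 5 alternatives, among them a floor of 2000 UMIs, where the ratio turned to -0.27. After thinning, progenitor Hes1 was not measured. The ependymal ratio was -0.058 after thinning, and the T cell call ended without the 5 cells with most UMIs. The difference between these classes was not tested, and each value is from 1 library per genotype. Hes5 was likewise called lower in astrocytes, at -0.80, and higher in neuroblasts, at 1.63, and in cycling neural progenitors, at 0.87, and this difference between classes was not tested either.

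Cells of unnamed clusters, which entered the values over all kept cells but no comparison by class, also held Hes1. Unnamed cluster 6, with microglial markers and a median of 1358 UMIs per control cell, had Hes1 at 164 CPM (control) and 294 CPM (cKO). Unnamed cluster 12, also with microglial markers and a low depth, had 4.53 CPM from 1 control UMI and 60.1 CPM from 23 cKO UMIs, 16 of them in 1 cell.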

How the results depend on the processing

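No paired analysis was possible because each genotype has 1 library, and both carry replicate number 1. The count of 3 pairs higher in the cKO library was 1 with a mitochondrial limit of 5%, where ependymal cells were too few and Hes5 in neuroblasts was not measured, and 1 with doublet calls kept. It was also 1 with cells thinned to 1000 UMIs, which called none of the 3 and added Notch4 in endothelial cells at 0.77. The 2 lower pairs became 6 with doublet calls kept, which added Notch2 in endothelial cells, Hes5 in mural cells, Hes1 in neuroblasts and Notch1 and Hes5 in oligodendrocytes and ended Dll4. Members with the same leading class numbered between 7 and 10. Of 474 ratios of single pairs under the alternatives, 431 stayed within the counting interval of the reported value, 41 moved beyond it and 435 kept their sign. A called ratio changed sign 2 times: Hes1 in cycling progenitors at -0.27 with a floor of 2000 UMIs, and Hes1 in ependymal cells at -0.058 after thinning. Hes5 in astrocytes was called lower under all 10 alternatives, at -0.85 to -0.64, and Dll4 in endothelial cells under 8 of 10, at -0.92 to -0.55. Notch1 in neuroblasts was called under 7 of 10 and Hes5 in neuroblasts under 5. Notch1 in T cells ran from 1.10 to 3.72. The arterial group was not rebuilt under other filters or resolutions, and the 4 alternatives run there kept its Hes1 call. Leaving out the 5 cells with most UMIs of a member was chosen after seeing the data. Dll1, with 39 and 48 UMIs in progenitors, and most members outside their leading classes were limited by depth.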

Other observations

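The cKO matrix also held 1448877 barcodes with 1 to 100 UMIs, 3917906 UMIs in all, which give the free RNA of that library. There Hes1 was at 155 CPM, Notch1 at 88.3, Notch2 at 45.9, Hes5 at 32.9, Jag2 at 29.9, Notch3 at 28.1, Jag1 at 20.2, Notch4 at 13.8, Dll4 at 7.66 and Dll1 at 2.81 CPM. The control matrix held no such barcodes, so the free RNA of the libraries could not be compared. Unnamed cluster 23 had 458 CPM of Hes5 in 99 control cells and 316 CPM in 24 cKO cells, above astrocytes and cycling progenitors in both libraries.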
